A study of Homo sapiens with 9 samples.

Results

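The 10 genes described here encode enzymes that NRF2 switches on against oxidants and electrophiles, and they were taken by symbol from 24672 genes: GCLC, GCLM, TXNRD1, SRXN1, NQO1, HMOX1 and the aldo-keto reductases AKR1C1, AKR1C2, AKR1C3 and AKR1B10. All 10 passed the filter on low counts, which kept 12806 genes for testing. RNA sequencing libraries came from EPC2, 1 line of human esophageal epithelial cells immortalized with telomerase reverse transcriptase. The 9 libraries form 3 groups of 3. The silenced libraries came from cells with SPINK7 silenced and the control libraries from cells with a non-silencing control, both differentiated at an air-liquid interface (ALI). In these ALI cultures calcium was 0.09 mM until day 2 and 1.8 mM from then on, the apical medium was taken off on day 7, and RNA was collected on day 14. The monolayer libraries came from undifferentiated cells that also carried the non-silencing control, with no harvest time or calcium level given. In comparisons with monolayers, differentiation, air exposure, calcium and time in culture cannot be told apart. The word differentiation below names that whole difference. All cells grew in keratinocyte serum-free medium to which bovine pituitary extract (50 ug/mL) and epidermal growth factor (1 ng/mL) had been added. The labels name a single silenced population, so loss of SPINK7 and other effects of the silencing construct cannot be told apart. Whether libraries of one group came from separate cultures is not stated, and the p-values below therefore rest on a spread between libraries that may be technical.

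NRF2, the transcription factor encoded by NFE2L2, is held by KEAP1 and handed to a cullin 3 ubiquitin ligase in unstressed cells. Oxidants and electrophiles modify KEAP1, after which NRF2 accumulates, pairs with small MAF proteins and binds antioxidant response elements, sites that the repressor BACH1 also occupies. In the esophagus, NRF2 is known for activating mutations in squamous cell carcinoma, and loss of Keap1 in mice causes hyperkeratosis of the esophageal lining. Aldo-keto reductases use NADPH to reduce aldehydes and ketones, including lipid aldehydes and steroids.

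Promoter sequences are shown for genes with letters of an antioxidant response element near their start, and for the AKR1C genes, whose likeness bears on how far their values can be separated. RefSeq windows of 300 bases (GRCh38.p14, from 250 bases before the annotated start to 50 after it; the hg19 coordinates given with the values are those of the deposited tables and were not converted) were found for 8 of the 10 genes, in 10 windows, and none was found for HMOX1 and AKR1B10. The core letters of the antioxidant response element, TGACNNNGC on either strand, were present in the windows of 2 of these 8 genes, GCLM and TXNRD1. They were present in 4687 of 35116 RefSeq windows of the same length (13.3%). That is a share of windows and not of genes, and TXNRD1 and AKR1C3 have 2 windows each. Letters outside the windows were not searched. A match is a description of letters and not a bound site. The window of GCLM (chr1:93909381-93909680, minus strand) and the windows of both annotated TXNRD1 starts (start 1, chr12:104215529-104215828, and start 2, chr12:104286782-104287081, plus strand) are printed with the matches in capitals. In GCLM the match spans -34 to -26 on the opposite strand, counted from 0 at the start. In TXNRD1 start 1 has a match at -99 to -91 on the printed strand and one at -8 to 0 on the opposite strand. At start 2 the match spans -102 to -94 on the opposite strand.
GCLM: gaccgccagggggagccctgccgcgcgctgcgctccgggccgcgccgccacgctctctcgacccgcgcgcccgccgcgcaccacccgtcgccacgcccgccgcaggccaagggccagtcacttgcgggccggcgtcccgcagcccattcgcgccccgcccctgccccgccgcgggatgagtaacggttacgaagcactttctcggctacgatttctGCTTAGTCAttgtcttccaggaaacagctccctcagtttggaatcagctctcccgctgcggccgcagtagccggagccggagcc
TXNRD1 start 1: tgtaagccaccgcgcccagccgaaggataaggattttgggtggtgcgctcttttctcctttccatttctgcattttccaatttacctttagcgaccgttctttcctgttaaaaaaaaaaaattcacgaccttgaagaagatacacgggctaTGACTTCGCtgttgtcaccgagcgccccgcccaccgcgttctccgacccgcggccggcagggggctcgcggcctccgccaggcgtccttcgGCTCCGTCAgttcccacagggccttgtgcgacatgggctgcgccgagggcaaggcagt
TXNRD1 start 2: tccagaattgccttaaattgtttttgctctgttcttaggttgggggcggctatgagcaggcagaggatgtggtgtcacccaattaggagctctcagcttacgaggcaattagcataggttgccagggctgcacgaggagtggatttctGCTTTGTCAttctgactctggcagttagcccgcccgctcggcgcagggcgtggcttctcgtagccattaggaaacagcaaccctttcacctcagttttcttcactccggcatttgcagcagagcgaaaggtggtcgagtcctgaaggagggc

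The AKR1C genes lie side by side on chromosome 10 and are near copies, which limits how their reads can be separated. The windows of AKR1C1 (chr10:4963165-4963464, plus strand), AKR1C2 (chr10:5003808-5004107, minus strand) and the downstream start of AKR1C3 (chr10:5094164-5094463, plus strand) are printed with capitals where a base differs from the aligned base of AKR1C1 or has no partner in it. AKR1C2 and AKR1C1 matched at 288 of 308 aligned columns (93.5%), and AKR1C3 and AKR1C1 at 71.6%.
AKR1C1: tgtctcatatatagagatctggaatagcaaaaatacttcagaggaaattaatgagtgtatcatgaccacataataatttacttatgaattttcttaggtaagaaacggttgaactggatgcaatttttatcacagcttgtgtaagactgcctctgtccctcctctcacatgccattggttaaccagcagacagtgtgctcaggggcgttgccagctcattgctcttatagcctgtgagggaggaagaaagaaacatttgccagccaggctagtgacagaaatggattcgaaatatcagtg
AKR1C2: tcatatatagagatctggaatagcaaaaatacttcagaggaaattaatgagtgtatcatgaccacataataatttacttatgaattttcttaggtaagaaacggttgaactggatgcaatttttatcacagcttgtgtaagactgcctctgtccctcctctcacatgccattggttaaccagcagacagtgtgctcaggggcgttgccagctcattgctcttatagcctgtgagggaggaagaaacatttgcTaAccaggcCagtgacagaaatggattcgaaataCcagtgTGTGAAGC
AKR1C3: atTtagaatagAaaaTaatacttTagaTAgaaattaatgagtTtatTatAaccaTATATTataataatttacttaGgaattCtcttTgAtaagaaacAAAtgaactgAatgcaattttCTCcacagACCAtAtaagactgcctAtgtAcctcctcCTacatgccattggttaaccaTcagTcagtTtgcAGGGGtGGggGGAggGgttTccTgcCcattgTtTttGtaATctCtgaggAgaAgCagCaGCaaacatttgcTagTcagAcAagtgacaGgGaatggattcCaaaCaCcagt

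The 3 silenced libraries held 8619938 to 14009746 counts, the control libraries 7641960 to 9863537 and the monolayers 9034424 to 12989094. Levels are CPM, counts scaled to a common library size and corrected for library composition, and 1 read was worth 0.0687 to 0.134 CPM. SPINK7, a serine protease inhibitor of squamous epithelium, measured 20.9, 38.6 and 32.7 CPM in the silenced libraries, 229, 261 and 225 CPM in the controls, and 0.212 to 0.745 CPM in the monolayers. It fell by 2.95 on the log2 scale with silencing (standard error [SE] 0.30, edgeR adjusted p = 0.00246). The 6 markers of squamous epithelium summed to 14800 CPM or more in every library, most of it KRT5 and KRT14. KRT13 and KRT4, keratins of the upper layers of this epithelium, were nearly absent from the monolayers (0.213 to 0.607 CPM and 0.506 to 1.28 CPM). The 16 differentiation markers summed to 7210 to 10900 CPM in silenced, 16900 to 22900 CPM in control and 31.9 to 44.4 CPM in monolayer libraries. Some libraries stood apart from their groups. Library 2 of the silenced group had 72.9 CPM summed over 10 proliferation markers against 485 and 493 CPM in the other silenced libraries, and library 2 of the control group had 122 CPM against 219 and 242 CPM. Monolayer library 1 had 184 CPM of COL1A1, a collagen gene, against 48.2 and 51.3 CPM in monolayers 2 and 3. In the whole fibroblast list 6 of 7 genes had counts and LUM had none. Its sum was 20.7 to 45.6 CPM in silenced, 12.2 to 49.2 CPM in control and 50.1 to 186 CPM in monolayer libraries. COL1A1 made up nearly all of that sum, and no other gene of the list exceeded 1.27 CPM in any library. Of the 6 leukocyte markers 4 had counts and the defining marker PTPRC was at 0. The list summed to 67.1 to 95.3 CPM in silenced, 53.2 to 70.5 CPM in control and 16.3 to 29.3 CPM in monolayer libraries. CD68 made up most of this, at 66.5 to 87 CPM in silenced, 51.7 to 68.6 CPM in control and 15.4 to 29.1 CPM in monolayer libraries. TYR and DCT were at 0 among 4 melanocyte markers, which summed to at most 3.28 CPM, and the 4 endothelial markers summed to at most 9.62 CPM. In such bulk libraries, fewer cells of a type and less RNA per cell cannot be told apart.

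With SPINK7 silencing 0 of the 10 genes passed the threshold, beside 0.929% of all tested genes. With differentiation of the control cells 6 of the 10 passed, beside 40.5% of all tested genes, so the comparisons also differed in how many genes passed overall. Against the monolayers, the differentiated control cells had more AKR1B10, AKR1C2, GCLC and SRXN1 and less GCLM and NQO1. The largest rise was that of AKR1B10 and the largest fall that of GCLM, among the 10 genes. Calls are edgeR quasi-likelihood tests over all 12806 genes with a Benjamini-Hochberg adjusted p under 0.05. Where a call was lost or gained without a library, the single value in parentheses is the adjusted p of that fit, and where a sign turned it is the log2 fold change.

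**Figure D1:**
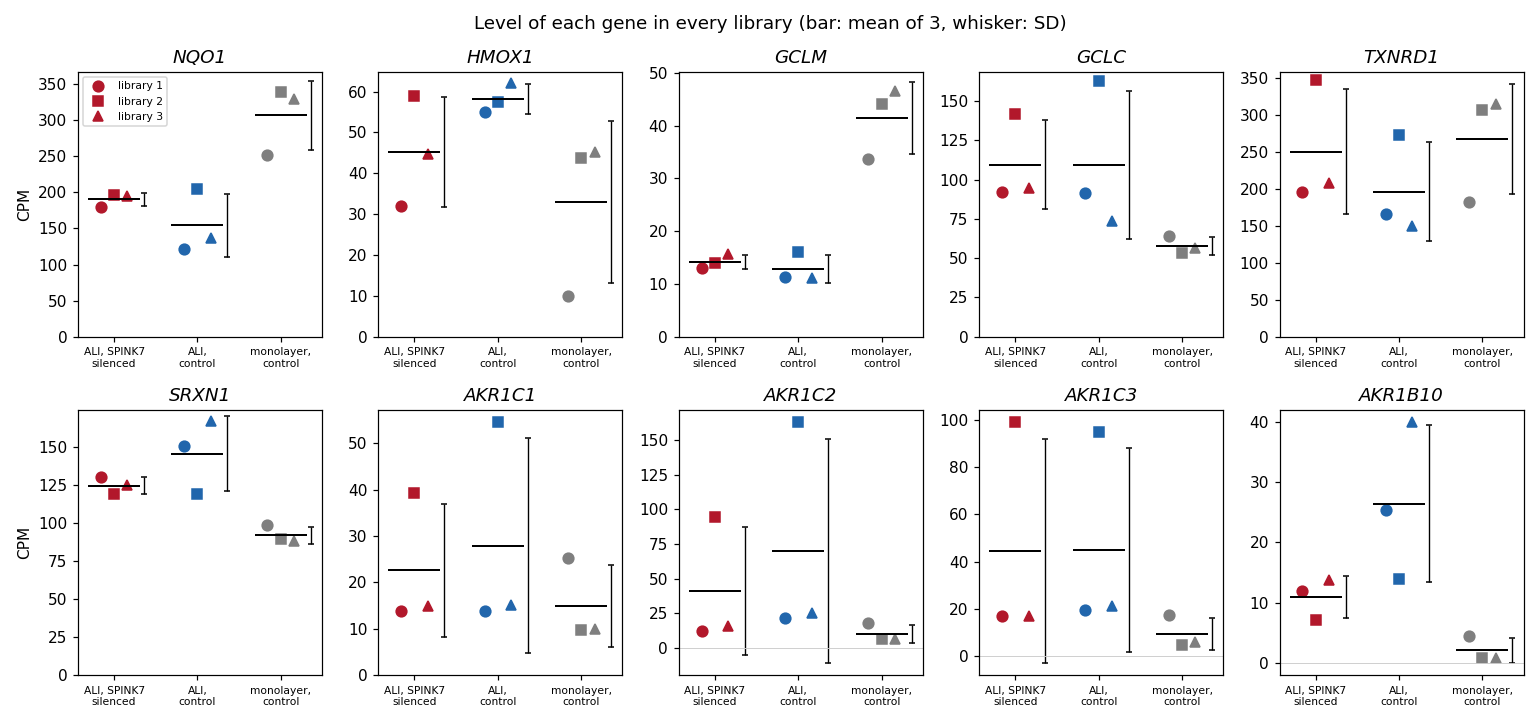
Level of each of the 10 genes (CPM, linear axis) in every library, by group; the marker shape gives the library number, the horizontal bar the mean of 3 and the whisker the SD. AKR1C1, AKR1C2 and AKR1C3 are high in library 2 of both ALI groups, GCLM and NQO1 are highest in the monolayers, and AKR1B10 is highest in the controls.

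Glutathione synthesis starts with glutamate-cysteine ligase, whose catalytic subunit is GCLC and whose modifier subunit is GCLM. The subunits went in opposite directions with differentiation. GCLM (chr1:94352590-94375012, minus strand, hg19) measured 13.1, 13.9 and 15.6 CPM in silenced, 11.4, 16 and 11.2 CPM in control and 33.7, 44.2 and 46.5 CPM in monolayer libraries. Every ALI library lay below every monolayer, while the silenced and control libraries overlapped. GCLM fell by 1.69 on the log2 scale in controls against monolayers (SE 0.23, adjusted p = 0.000344) and by 1.55 in silenced libraries against monolayers (SE 0.23, adjusted p = 0.000681), calls kept in all 21 alternatives. The monolayer level was thus the highest of the 3, and silenced and control levels did not differ past the threshold. GCLC (chr6:53362140-53409927, minus strand) measured 92.2, 142 and 94.4 CPM in silenced, 91.4, 163 and 73.5 CPM in control and 64.2, 53.2 and 56.3 CPM in monolayer libraries. Here all ALI libraries lay above all monolayers, with library 2 highest in both ALI groups. GCLC rose by 0.92 in controls (SE 0.31, adjusted p = 0.0366) and by 0.92 in silenced libraries (adjusted p = 0.0427), each against monolayers. Its call in controls was lost without control library 2 (0.51, adjusted p = 0.0924) or without monolayer library 1 (0.0680), 2 (0.110) or 3 (0.0989). In the silenced libraries it was lost without silenced library 2 (0.129) or 3 (0.0680), control library 1 (0.0555), or monolayer library 1 (0.0818), 2 (0.129) or 3 (0.117). With silencing, the log2 fold change was 0.14 for GCLM (95% interval -0.36 to 0.64, adjusted p = 0.864) and 0.01 for GCLC (-0.67 to 0.68, adjusted p = 0.996). The sign for GCLC turned without silenced library 2 (-0.24), control library 1 (-0.11) or control library 3 (-0.21).

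TXNRD1 is the cytosolic reductase that recycles thioredoxin, and SRXN1, sulfiredoxin, restores overoxidized peroxiredoxins. SRXN1 (chr20:627268-633890, minus strand) measured 130, 119 and 125 CPM in silenced, 151, 119 and 167 CPM in control and 98.4, 89.4 and 88.3 CPM in monolayer libraries. All ALI libraries lay above all monolayers, and it was among the members that varied least within a group, with silenced libraries spanning 0.14 and monolayers 0.15 on the log2 scale. SRXN1 rose by 0.66 in controls against monolayers (SE 0.19, adjusted p = 0.0173), a call lost without monolayer library 2 (0.0751) or 3 (0.0771). In silenced libraries against monolayers its log2 fold change was 0.44 (adjusted p = 0.0971), which passed without control library 2 (0.0264), and with silencing it was -0.23 (95% interval -0.64 to 0.18, adjusted p = 0.747). TXNRD1 measured 196, 348 and 208 CPM in silenced, 167, 273 and 150 CPM in control and 182, 307 and 315 CPM in monolayer libraries. All 3 groups overlapped, and the highest ALI library was number 2 in both groups. Its log2 fold change was -0.44 in controls against monolayers (SE 0.33, adjusted p = 0.305), -0.09 in silenced libraries against monolayers (adjusted p = 0.857), and 0.35 with silencing (95% interval -0.39 to 1.09, adjusted p = 0.772). Without library 2 of both ALI groups TXNRD1 was lower in controls than in monolayers, with -0.75 (adjusted p = 0.0165). The sign against monolayers in silenced libraries turned without silenced library 1 (0.06) or 3 (0.02), or monolayer library 2 (0.01) or 3 (0.03).

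TXNRD1 has separate rows in the deposited tables for 2 starts on chromosome 12. The main row (chr12:104680460-104744085, plus strand) carried most of the reads. A row that starts 70903 bases upstream (chr12:104609557-104744085) had 0, 77 and 12 counts in silenced libraries, 47, 119 and 43 in controls, and 0 in each monolayer. As a share of TXNRD1 counts this was 0, 1.52 and 0.675% in silenced and 3.77, 5.5 and 3.02% in control libraries, so the 2 ALI groups did not overlap. How the authors divided reads of shared exons between rows is not given in the sources used here, and the row was chosen after its values were seen. No test was made of it.

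NQO1 reduces quinones by a hydride transfer that avoids radical intermediates, and HMOX1 is the inducible heme oxygenase, which opens heme to biliverdin, iron and carbon monoxide. NQO1 (chr16:69743304-69760533, minus strand) measured 180, 196 and 195 CPM in silenced, 122, 204 and 137 CPM in control and 252, 339 and 329 CPM in monolayer libraries. The monolayers were above all ALI libraries, and the silenced libraries lay inside the range of the controls. NQO1 fell by 0.99 in controls against monolayers (SE 0.24, adjusted p = 0.0084), kept in all 21 alternatives. In silenced libraries against monolayers it fell by 0.69 (adjusted p = 0.049). That call was lost without silenced library 1 (0.124), 2 (0.0742) or 3 (0.113), control library 1 (0.0511) or 3 (0.0551), or monolayer library 2 (0.145) or 3 (0.131). With silencing its log2 fold change was 0.30 (SE 0.24, 95% interval -0.22 to 0.83, adjusted p = 0.734). HMOX1 (chr22:35777060-35790207, plus strand) measured 32, 58.9 and 44.6 CPM in silenced, 54.9, 57.4 and 62.2 CPM in control and 10.1, 43.7 and 45.2 CPM in monolayer libraries. The controls lay above the monolayers without overlap. Monolayer library 1, which also stood apart in COL1A1, was far below the other monolayers. Whether what raised COL1A1 there had a part in this was not tested. The log2 fold change was 0.82 in controls against monolayers (SE 0.46, adjusted p = 0.179), 0.46 in silenced libraries against monolayers (adjusted p = 0.479) and -0.36 with silencing (95% interval -1.38 to 0.66, adjusted p = 0.827). None of these passed the threshold in any of the 21 alternatives. Without monolayer library 1 HMOX1 gave 0.39 in controls (adjusted p = 0.313) and 0.01 in silenced libraries (adjusted p = 0.976) against monolayers. HMOX2, the constitutive heme oxygenase, averaged 174 ± 23.9 CPM in silenced, 168 ± 38.7 CPM in control and 124 ± 26.5 CPM in monolayer libraries (SD, n = 3 each). It did not pass either (adjusted p = 0.168 in controls against monolayers, 0.151 in silenced libraries against monolayers and 0.964 with silencing). Without library 2 of both ALI groups HMOX2 was higher by 0.61 in controls (adjusted p = 0.0203) and by 0.61 in silenced libraries (adjusted p = 0.0215) than in monolayers. Its silencing value of 0.05 turned in sign in 4 of 21 alternatives. Among these it was -0.03 without silenced library 1, -0.11 without control library 2 and -0.01 without library 2 of both ALI groups.

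AKR1B10 reduces aliphatic aldehydes and retinal. AKR1B10 (chr7:134212344-134226166, plus strand) measured 11.9, 7.08 and 13.8 CPM in silenced, 25.4, 13.9 and 40 CPM in control and 4.46, 0.809 and 0.851 CPM in monolayer libraries. The 3 groups formed an order without overlap, controls above silenced above monolayers, although silenced library 3 (13.8 CPM) and control library 2 (13.9 CPM) nearly met. AKR1B10 rose 12.3-fold in controls against monolayers (log2 fold change 3.62, SE 0.65, adjusted p = 0.00189), a call kept in all 21 alternatives. Monolayers 2 and 3 held 8 counts each and monolayer 1 held 63, so that this rise was 4.98 on the log2 scale without monolayer library 1. In silenced libraries against monolayers it rose by 2.34 (SE 0.63, adjusted p = 0.0187). That value was 3.68 without monolayer library 1, and the call was lost without silenced library 3 (0.0672) or monolayer library 2 (0.0683) or 3 (0.0676). With silencing the log2 fold change was -1.28 (SE 0.58, 95% interval -2.58 to 0.01). Its adjusted p was 0.549 and ranged from 0.264 to 0.979 over the alternatives. It was the member with the largest difference between silenced and control libraries and the one of 10 whose silenced and control libraries did not overlap, where 12.1% of all tested genes did not overlap. AKR1B15, its paralog, stayed at or under 0.211 CPM in all 9 libraries and was not tested.

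AKR1C1, AKR1C2 and AKR1C3 are hydroxysteroid dehydrogenases that also reduce lipid aldehydes. AKR1C1 inactivates progesterone, AKR1C2 inactivates dihydrotestosterone, and AKR1C3 makes testosterone and reduces prostaglandin D2. AKR1C1 (chr10:5005454-5020158, plus strand) measured 13.8, 39.2 and 14.8 CPM in silenced, 13.8, 54.7 and 15.2 CPM in control and 25.2, 9.82 and 9.9 CPM in monolayer libraries. AKR1C2 (chr10:5029968-5060225, minus strand) measured 12.3, 94.3 and 15.9 CPM in silenced, 21.3, 163 and 25 CPM in control and 17.8, 6.37 and 6.17 CPM in monolayer libraries. AKR1C3 (chr10:5136568-5149878, plus strand) measured 16.9, 99.2 and 17 CPM in silenced, 19.2, 95.1 and 20.9 CPM in control and 17.1, 4.55 and 5.75 CPM in monolayer libraries. For all 3 genes library 2 was the highest of its group in both ALI groups and library 1 the highest of the monolayers. Within a group AKR1C2 spanned 2.92 on the log2 scale in silenced and 2.92 in control libraries, the widest of the 10 genes. These were the ALI libraries with the low proliferation sums given above. The monolayers had proliferation sums of 117, 152 and 151 CPM, against 122 CPM in control library 2. Summed over the AKR1C genes, they had 60.2, 20.7 and 21.8 CPM, against 313 CPM in control library 2. ALI libraries 1 and 3 had AKR1C sums of 43.1 to 61.1 CPM. SLC7A11, the cystine transporter of the NRF2 targets, was high in library 2 of both ALI groups. It measured 31.8, 349 and 63.7 CPM in silenced, 59.3, 471 and 26.6 CPM in control and 110, 51 and 44.9 CPM in monolayer libraries. The part of either in the AKR1C levels was not tested.

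With all libraries, AKR1C2 was the one AKR1C gene that passed in any contrast. AKR1C2 rose by 2.77 on the log2 scale in controls against monolayers (SE 0.99, adjusted p = 0.0478), with no overlap. Without control library 2 it was 1.18 (adjusted p = 0.313), and the call was also lost without silenced library 3 (0.0560) or monolayer library 1 (0.0603), 2 (0.139) or 3 (0.137). Without library 2 of both ALI groups the rise was 1.17 (adjusted p = 0.0326). AKR1C3 gave 2.28 in the same comparison (SE 0.89, adjusted p = 0.0639), also without overlap. Its value was 1.11 without control library 2 (adjusted p = 0.334) and 3.11 without monolayer library 1 (adjusted p = 0.0524), and it passed without silenced library 2 (2.27, adjusted p = 0.0272). AKR1C1 gave 0.89 (SE 0.63, adjusted p = 0.28) with overlapping groups, and its sign turned without control library 2 (-0.05). In silenced libraries against monolayers the log2 fold changes were 0.59 for AKR1C1 (adjusted p = 0.502), 2.00 for AKR1C2 (adjusted p = 0.141) and 2.27 for AKR1C3 (adjusted p = 0.0763). Without silenced library 2 these were -0.09 for AKR1C1, 0.45 for AKR1C2 (adjusted p = 0.727) and 0.86 for AKR1C3 (adjusted p = 0.423). AKR1C3 passed without control library 2 (2.27, adjusted p = 0.0468). With silencing the intervals of all 3 genes were wide: -1.68 to 1.09 around -0.30 for AKR1C1, -2.82 to 1.3 around -0.76 for AKR1C2, and -1.88 to 1.85 around -0.02 for AKR1C3 (adjusted p = 0.895, 0.819 and 0.997). Without control library 2 these signs turned, to 0.65, 0.83 and 1.15 in the same gene order. AKR1C3 also turned without silenced library 1 (0.37) or 3 (0.38).

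Reads of near copies can be assigned to the wrong gene, so the AKR1C genes were also summed. For this, 1 annotated transcript per gene was compared, of 6705 bases for AKR1C1, 3756 for AKR1C2, 1807 for AKR1C3 and 1590 for AKR1B10. The gene models behind the counts are not stated and may differ in length. The shares below therefore describe these transcripts and do not measure how far the counted reads could be confused. The transcripts of AKR1C2 and AKR1C1 matched at 97.1% of 3770 aligned columns, and 50.8% of the 50-base stretches of AKR1C2 occurred unchanged in AKR1C1. AKR1C3 was more distinct, at 87.4% to AKR1C1 with 7.68% of its stretches shared and at 87.3% to AKR1C2 with 9.61% shared. AKR1B10 matched the AKR1C transcripts at 58.9 to 60.9% and shared no stretch with them. The summed AKR1C level was 43.1, 233 and 47.6 CPM in silenced, 54.2, 313 and 61.1 CPM in control and 60.2, 20.7 and 21.8 CPM in monolayer libraries. As for the single genes, library 2 stood far above the others in both ALI groups. The sum gave a log2 fold change of -0.40 with silencing (adjusted p = 0.892), 2.05 in controls against monolayers (adjusted p = 0.0791) and 1.65 in silenced libraries against monolayers (adjusted p = 0.162), so no call remained for the sum. The make-up of the sum also differed between libraries. AKR1C1 took 32.1, 16.9 and 31% of AKR1C counts in silenced, 25.4, 17.5 and 24.9% in control and 41.9, 47.3 and 45.4% in monolayer libraries, which put its share in every monolayer above that in every ALI library. AKR1C4, the liver member of this cluster, was at or under 0.252 CPM in every library.

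**Figure D2:**
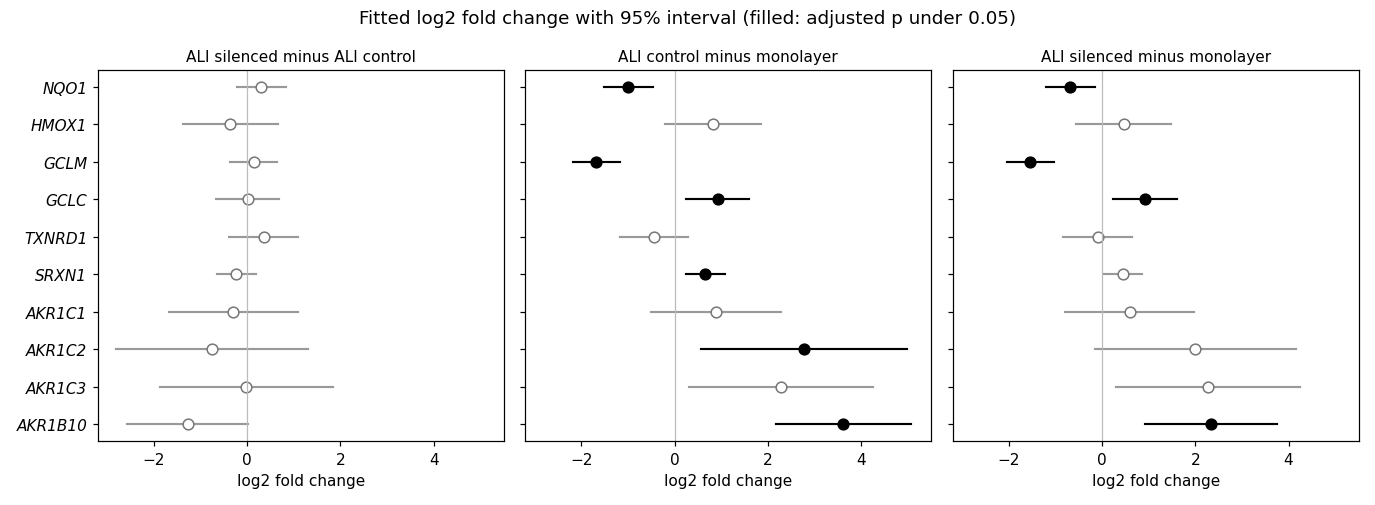
Fitted log2 fold changes of the 10 genes in the 3 comparisons, with 95% intervals as lines; filled points have an edgeR adjusted p under 0.05. No point is filled for silencing, 6 are filled for controls against monolayers and 4 for silenced libraries against monolayers. The intervals of AKR1C2 and AKR1C3 are the widest in each comparison.

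Compared per transcript length in the authors' RPKM (reads scaled by transcript length and library size), NQO1 had the highest mean of the 10 genes in each group, at 63.8 ± 3.96 in silenced, 47.1 ± 9.56 in control and 107 ± 17.2 RPKM in monolayer libraries (SD, n = 3 each). TXNRD1 and SRXN1 followed it, at 55.7 ± 19.6 and 41.9 ± 1.31 RPKM in silenced, 39.6 ± 9.96 and 45.5 ± 10.5 RPKM in control and 61.5 ± 17.4 and 32.2 ± 1.73 RPKM in monolayer libraries. In the control libraries these 3 genes lay within their SDs of each other, and SRXN1 exceeded NQO1 in libraries 1 (48.8 against 39.3 RPKM) and 3 (53.9 against 44.1 RPKM). TXNRD1 exceeded NQO1 in silenced library 2 (78.3 against 66.7 RPKM). GCLM had the lowest mean in the ALI groups, at 3.99 ± 0.376 RPKM in silenced and 3.29 ± 0.436 RPKM in control libraries, and AKR1B10 the lowest in the monolayers, at 1.14 ± 1.17 RPKM. The catalytic subunit GCLC stood at 24.9 ± 6.85, 22.4 ± 7.87 and 13.7 ± 1.26 RPKM in silenced, control and monolayer libraries. GCLM, its partner, thus reached 12.1 ± 2.07 RPKM in the monolayers, where its libraries (9.79 to 13.7 RPKM) overlapped those of GCLC (12.6 to 15 RPKM). In the ALI libraries the ranges of both genes were apart.

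With silencing, 0 of the 10 genes passed, beside 119 of 12806 tested genes (0.929%, with 0.226% higher and 0.703% lower), and 0 had an unadjusted p under 0.05, beside 9.16% of all genes. DESeq2 also called 0 of the 10, and the count was 0 in all 21 alternatives. The median log2 fold change of the 10 was -0.12, beside 0.01 over all tested genes, and 4 of the 10 were above 0. The markers of squamous differentiation moved in this comparison (7 of 16 fell, among them KRT1, DSC1 and KRTDAP), and their part in the values of the 10 genes was not tested. NFE2L2 measured 188, 313 and 232 CPM in silenced libraries and 255, 447 and 218 CPM in controls. KEAP1 measured 58.8, 44.8 and 44.3 CPM in silenced libraries and 41.5, 22.6 and 48 CPM in controls. Both groups overlapped for both genes, with log2 fold changes of -0.33 for NFE2L2 (adjusted p = 0.778) and 0.40 for KEAP1 (adjusted p = 0.712), and the sign for NFE2L2 turned without control library 2 (0.05). The same holds for SLC7A11, at -0.32 (SE 1.05, adjusted p = 0.936), which turned to 1.79 without control library 2, 0.16 without silenced library 1 and 0.06 without silenced library 3. Of 13 NRF2 regulators, 26 other antioxidant enzymes, 4 other aldo-keto reductases and 9 genes of heme and iron handling, 0 passed in each list. An unadjusted p under 0.05 was held by 3 of the 13 regulators, beside 9.16% of all genes. Named here after their values were seen, these were NFE2L3 (log2 fold change -1.01, adjusted p = 0.216), BACH1 (-0.8, adjusted p = 0.344) and MAFG (0.51, adjusted p = 0.523). In the heme and iron list 1 of 9 did, and 0 did among the antioxidant enzymes and other aldo-keto reductases. Without library 2 of both ALI groups, 3 regulators and 1 heme and iron gene passed, beside 708 of all genes, and 1 heme and iron gene passed without silenced library 2. The medians of these lists were 0.04, -0.16, -0.04 and 0.16.

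Of 34 other NRF2 targets, 1 fell with silencing and 0 rose, with a list median of -0.05. This was EPHX1, the microsomal epoxide hydrolase, at 10.8, 9.07 and 9.6 CPM in silenced libraries and 23.4, 17.5 and 32.6 CPM in controls, without overlap. EPHX1 fell by 1.32 (SE 0.26, adjusted p = 0.0463). The call was lost in 13 of 21 alternatives, among them leaving out any single library other than control library 2 (adjusted p from 0.0757 to 0.190). In the monolayers it was at 8.78, 7.89 and 6.81 CPM, and it rose by 1.64 in controls against monolayers (adjusted p = 0.000909). GPX2, an epithelial glutathione peroxidase, measured 19.9, 22.8 and 21.1 CPM in silenced and 33.8, 40.2 and 55 CPM in control libraries, so that the groups did not overlap, but it did not pass the threshold (log2 fold change -1.02, SE 0.26, adjusted p = 0.12). Silenced and control libraries did not overlap for 9 of the 34, beside 12.1% of all tested genes, and 8 of the 34 had an unadjusted p under 0.05, beside 9.16%. Besides EPHX1 and GPX2, and named here after their values were seen, GSTA4 (log2 fold change -1.65, adjusted p = 0.0532), ME1 (-0.83, adjusted p = 0.216) and PRDX1 (-0.57, adjusted p = 0.518) lay lower in every silenced library than in every control. CYP4F11 (2.74, adjusted p = 0.0888), CBR3 (2.48, adjusted p = 0.138), ALDH3A1 (1.73, adjusted p = 0.61) and ABCC3 (1.03, adjusted p = 0.175) lay higher in every silenced library. None of these 7 passed the threshold. CYP4F11, CBR3 and ALDH3A1 were near the floor, with 17, 6 and 26 counts over the 3 controls. They averaged 4.68, 1.42 and 3.53 CPM in silenced and 0.705, 0.237 and 1.06 CPM in control libraries, in that gene order. The count of 1 was 2 without control library 2, 0 without silenced library 1 or 3, control library 1 or 3, or any 1 monolayer library, and 6 without library 2 of both ALI groups.

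In controls against monolayers, 6 of the 10 genes passed (4 rose and 2 fell), beside 5190 of all tested genes (40.5%, of which 20.3% rose and 20.2% fell). The CPM of control and monolayer libraries did not overlap for 8 of the 10, beside 57.3% of all tested genes, and the median log2 fold change was 0.85, beside 0.03 over all tested genes. All 16 markers of squamous differentiation rose in this comparison, and their part in the values of the 10 genes was not tested. The count of 6 was 3 without monolayer library 2 or 3, and 7 without library 2 of both ALI groups. Among the other NRF2 targets 11 of 34 rose and 7 fell, with a median of 0.61. ADH7, an alcohol dehydrogenase of the upper digestive tract, had 68.4, 237 and 84.6 CPM in controls and 0 counts in the monolayers, at least 1430-fold higher against a floor of 3 counts over the 3 monolayers (adjusted p = 7.08e-05). GPX2 rose as well, with 33.8, 40.2 and 55 CPM in controls against 1.7, 2.83 and 2.98 CPM in monolayers (log2 fold change 4.11, SE 0.30, adjusted p = 7.64e-06). UGT1A6, a glucuronosyltransferase that shares exons with its UGT1A neighbours, so that its counts are uncertain, gave 2.60 (adjusted p = 0.0373). Its call was lost without silenced library 3 (0.0543), control library 2 (0.152) or monolayer library 2 (0.107) or 3 (0.102), and its value was 4.71 without monolayer library 1 (adjusted p = 0.00367) and 1.65 without library 2 of both ALI groups (adjusted p = 0.157).

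Among regulators and neighbouring enzyme families, 3 of 13 regulators, 8 of 26 antioxidant enzymes, 1 of 4 other aldo-keto reductases and 1 of 9 heme and iron genes passed with differentiation, beside 40.5% of all tested genes. NFE2L2 gave 0.67 (SE 0.31, adjusted p = 0.116) and KEAP1 -0.16 (adjusted p = 0.672) in controls against monolayers, at 240, 167 and 173 CPM and 42.8, 45.3 and 36.9 CPM in the monolayers, and KEAP1 turned to 0.11 without control library 2. SLC7A11 gave 1.43 (SE 1.07, adjusted p = 0.304) and turned to -0.68 without control library 2. Of the 13 regulators 2 rose and 1 fell, with a median of 0.38. BACH2, a relative of BACH1, measured 3.08, 2.02 and 3.17 CPM in controls against 14, 12.9 and 10.3 CPM in monolayers and fell by 2.16 (adjusted p = 0.000372), a call kept in all 21 alternatives. BACH1, the competitor of NRF2, measured 153, 214 and 108 CPM against 85.7, 81.3 and 80.5 CPM and rose by 0.94 (adjusted p = 0.0261). RBX1, the RING subunit of the KEAP1 ligase, rose by 0.72 (adjusted p = 0.0394). Both calls were lost without control library 2 (adjusted p = 0.0592 for BACH1 and 0.0865 for RBX1) and without any 1 monolayer library (0.0649 to 0.0789 and 0.0808 to 0.121). BACH1 was also lost without control library 1 (0.0520) and RBX1 without silenced library 1 (0.0531). The regulator count of 3 was 1 without control library 2 or any 1 monolayer library, 5 without control library 3, and 6 without library 2 of both ALI groups. Of 26 antioxidant enzymes 4 rose and 4 fell, with a median of 0.13. GLRX, glutaredoxin, was at 43.7, 196 and 41.1 CPM in controls against 3.4, 6.98 and 6.39 CPM in monolayers and rose by 4.08 (adjusted p = 0.00299). The methionine sulfoxide reductase MSRB3 fell by 1.41 (adjusted p = 0.00139), and the peroxidase GPX8 fell by 1.4 (adjusted p = 0.0468), a call lost without silenced library 3 (0.0638), control library 1 (0.139) or 3 (0.118), or any 1 monolayer library (0.0821 to 0.104). The antioxidant count of 8 was 5 without any 1 monolayer library and 13 without library 2 of both ALI groups. SLC40A1, the iron exporter, was the 1 heme and iron gene of 9 that rose, at 2.42 ± 0.997 CPM in controls and 0.138 ± 0.12 CPM in monolayers (SD, n = 3 each, edgeR log2 fold change 3.93, adjusted p = 0.00603). With silencing SLC40A1 lay lower in every silenced library than in every control, at 0.214 ± 0.294 CPM (log2 fold change -3.22, edgeR adjusted p = 0.122). That change did not pass the threshold and was near the floor, with 9 counts over the silenced and 60 over the control libraries. With differentiation the heme and iron median was 0.00, and the count was 2 without silenced library 2 or control library 2 and 6 without library 2 of both ALI groups.

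AKR1B1, aldose reductase, is the closest relative of AKR1B10 that was expressed, and it ran opposite to AKR1B10. AKR1B1 measured 48.8, 54.8 and 42.4 CPM in silenced, 36.6, 57.5 and 42.8 CPM in control and 86.5, 105 and 94.5 CPM in monolayer libraries. All ALI libraries were below all monolayers. AKR1B1 fell by 1.06 in controls (SE 0.22, adjusted p = 0.00359) and by 0.97 in silenced libraries (SE 0.22, adjusted p = 0.007) against monolayers, calls kept in all 21 alternatives, and gave 0.09 with silencing (95% interval -0.38 to 0.57, adjusted p = 0.907). That last sign turned without silenced library 2 (-0.02) or control library 1 (-0.04). It was the 1 gene that passed of the 4 other aldo-keto reductases tested, out of 13 in the table, and the list medians were -0.02 in controls and -0.03 in silenced libraries against monolayers.

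**Figure D3:**
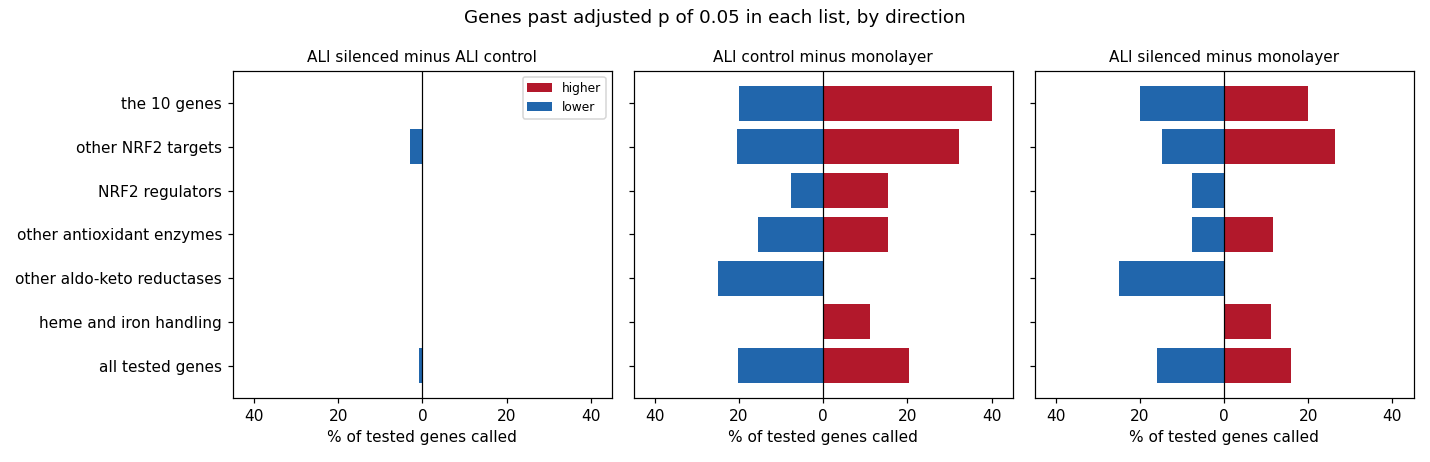
Share of the tested genes of each list with an edgeR adjusted p under 0.05 in the 3 comparisons, in percent, with higher genes to the right of 0 and lower genes to the left. For silencing 1 of 34 other NRF2 targets is lower and no other list has a bar, beside 0.929% of all tested genes, while in both comparisons with monolayers bars extend to both sides.

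In silenced libraries against monolayers, 4 of the 10 genes passed, GCLC and AKR1B10 upward and GCLM and NQO1 downward, beside 4058 of all tested genes (31.7%, of which 15.8% rose and 15.9% fell). The monolayers are shared with the comparison of controls and monolayers, and the silenced libraries with the silencing comparison. Silenced and monolayer libraries did not overlap for 5 of the 10, beside 55.7% of all tested genes, and the median log2 fold change was 0.52, beside 0.04. The count of 4 was 2 without silenced library 2 or control library 1, 1 without monolayer library 2 or 3 or silenced library 3, 6 without control library 2, and 5 without library 2 of both ALI groups. Among the 34 other NRF2 targets 9 rose and 5 fell, with a median of 0.38. ADH7, at 37.6, 88.3 and 46.4 CPM, was at least 686-fold higher than in monolayers against the same floor, and GPX2 rose by 3.10 (adjusted p = 4.64e-05). GSTM3, a glutathione transferase whose reads can be shared with other GSTM genes, fell by 1.43 (adjusted p = 0.00126). NFE2L2 gave 0.34 (adjusted p = 0.438), KEAP1 0.24 (adjusted p = 0.539) and SLC7A11 1.11 (adjusted p = 0.453), of which SLC7A11 turned to -0.54 without silenced library 2. Of 13 regulators 1 fell, BACH2, at 2.71, 3.98 and 2.93 CPM (log2 fold change -1.94, adjusted p = 0.000756). Of 26 antioxidant enzymes 3 rose and 2 fell, led by GLRX (3.82, adjusted p = 0.00497) and MSRB3 (-1.76, adjusted p = 0.00048), and GLRX2 gave 1.06 (adjusted p = 0.0358). GLRX2 lost its call without silenced library 2 (0.0842) or 3 (0.112) or any 1 monolayer library (0.0626 to 0.114). Of 9 heme and iron genes 1 rose, the biliverdin reductase BLVRB, at 57.5, 108 and 39.3 CPM against 30, 30.6 and 30.5 CPM in monolayers (1.17, adjusted p = 0.0396). BLVRB belongs to both lists, so its rise is also counted among the 9 other NRF2 targets that rose. BLVRB lost its call without silenced library 1 (0.0503) or 2 (0.151), control library 3 (0.0512) or any 1 monolayer library (0.107 to 0.109). The list medians were 0.14 for the regulators, -0.10 for the antioxidant enzymes and 0.15 for the heme and iron genes. The target count of 14 was 9 without monolayer library 2. The regulator count was 3 without silenced library 2 and 2 without control library 2. The antioxidant count of 5 was 8 without silenced library 2 or control library 2, 2 without monolayer library 1 or 2 or silenced library 3, and 3 with monolayer library 3 left out. Without library 2 of both ALI groups the counts were 20 targets, 5 regulators, 12 antioxidant enzymes and 5 heme and iron genes.

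**Figure D4:**
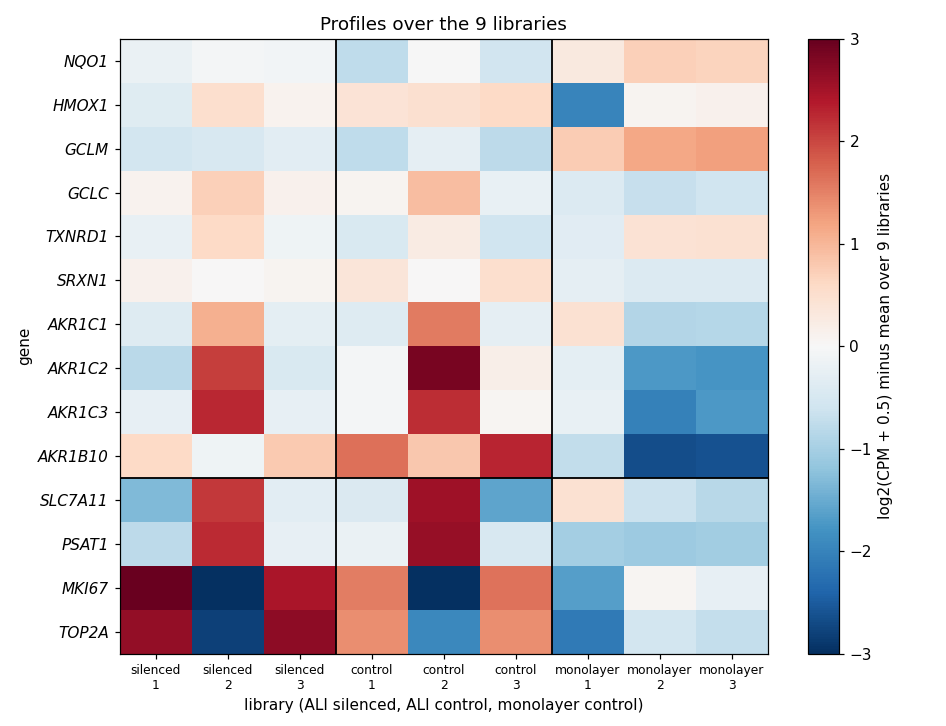
Level of each of the 10 genes, of SLC7A11 and PSAT1, and of the proliferation markers MKI67 and TOP2A in the 9 libraries, as log2(CPM + 0.5) minus the mean of the gene over the 9 libraries; colours are capped at -3 and 3. AKR1C2, AKR1C3, SLC7A11 and PSAT1 are high in library 2 of both ALI groups, where MKI67 and TOP2A are low, and HMOX1 is low in monolayer library 1.

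The members did not follow 1 common profile. Likeness was measured as the root-mean-square difference of centred log2 levels over the 9 libraries, among 10558 genes with a mean of at least 5 CPM, and is a description with no test. AKR1C2 and AKR1C3 were the nearest genes to each other (0.33), and whether shared reads had a part in this was not tested. Outside the 10, AKR1C2 was nearest to PSAT1, an enzyme of serine synthesis (0.49), and FNIP2 (0.51), and AKR1C3 to EXPH5 (0.41) and FNIP2 (0.43). PSAT1 measured 90.3, 741 and 132 CPM in silenced, 135, 948 and 112 CPM in control and 76, 73.2 and 74.8 CPM in monolayer libraries, high in library 2 of both ALI groups like the AKR1C genes. AKR1C1 lay closer to EPB41L4A-AS1 (0.18) and SNHG8 (0.20) than to any of the 10, of which GCLC was nearest (0.49, at rank 218). GCLC itself was nearest to PTER (0.09) and RICTOR (0.11), and its partner GCLM to TBC1D8B (0.12) and CMBL (0.16). NQO1 was nearest to MGST3, a microsomal glutathione transferase (0.12), SRXN1 to TOX4 (0.08) and LANCL2 (0.09), and TXNRD1 to FAM63B (0.18) and IL1B (0.18). HMOX1 had no close neighbour among the 10 (SRXN1, 0.69) and was nearest to SH3KBP1 (0.34) and MICALCL (0.41). AKR1B10 was nearest to PGBD5 (0.43) and PALMD (0.49), and its nearest gene of the 10 was SRXN1 at 1.48, the longest such distance.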

How the data were processed

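RNA was sequenced from 9 libraries in 3 groups of 3, stranded and polyA-selected per the labels' protocols. The authors deposited, per library, whole-number read counts and RPKM values for 29800 transcript rows on hg19. STAR 2.4.2a, Bowtie and MACS2 are named in the submitters' processing notes with no role, while the program that counted reads, the gene models behind it and whether it used strand are not stated in any source used. Groups and library numbers follow the labels, since the deposited ALI tables are named for day 7 and number some libraries otherwise.

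Counts were summed per gene name and chromosome, which gave 24672 genes. The 511 rows that name several genes (0.411 to 0.554% of counts) were kept under their joint names and counted among these. The low-count filter of edgeR 4.0.16 (R 4.3.3) kept 12806 genes. All 9 libraries entered 1 TMM-scaled quasi-likelihood fit (6 residual degrees of freedom), with 3 contrasts and Benjamini-Hochberg adjustment over all tested genes. Called means an adjusted p under 0.05. Intervals on fold changes are 95% intervals of that fit. Transcripts and promoters were aligned with Biopython 1.88.

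The 10 genes and all lists were chosen with earlier results of these data known. BLVRB, FTH1, FTL and SLC48A1 are in both the list of other NRF2 targets and that of heme and iron handling. Named genes were the 10, SPINK7, NFE2L2, KEAP1, SLC7A11, AKR1B1, AKR1B15, AKR1C4 and HMOX2 in every contrast, up to 3 called genes per list and contrast by size of change whose higher group averaged 5 CPM or more, and the 2 nearest profiles per member; a few items that this rule names are not reported here. COL1A1, MKI67, TOP2A, SLC40A1, the differentiation markers named and the genes so marked above were added after their values were seen. Alternatives were DESeq2 1.42.0 size factors and Wald test, limma 3.58.1 voom, other filters, a replicate block, fits on 2 groups, log2(RPKM + 1) and log2(RPKM + 0.1) of the deposited RPKM with limma, summed AKR1C genes, each library left out, library 2 of both ALI groups left out and, chosen after seeing the data, monolayer libraries 2 and 3 summed, since they differed least (chi-square per gene 1.91, against 16.9 to 161 for the other pairs). The edgeR procedure was tested on simulated counts that held changes in the silenced group only. They held no difference between ALI cultures and monolayers and no library that stood apart, so the test does not bear on those features. Same-numbered libraries did not deviate together in all pairs, so library numbers were not used as pairs. Intervals and floors cover counting error or spread between libraries, not PCR duplication.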

Additional observations from a re-analysis of the deposited data

How the results depend on the processing

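The 10 genes gave 30 fold changes, and 21 alternatives each. Of these 630 values, 555 kept direction and side of the threshold, 46 lost the call, 9 gained one and 20 turned in sign. For 39 fold changes of other genes taken by the naming rule the numbers were 729, 69, 2 and 19 of 819. The count of 0 called genes of the 10 for silencing held in all 21. Over all genes, 119 were called for silencing, which became 415 with the DESeq2 Wald test, 59 with only both ALI groups in the fit, 708 without library 2 of both ALI groups, 79 with monolayer libraries 2 and 3 summed, and 28 to 236 with 1 library left out (28 without silenced library 1, 33 without silenced library 3, 51 without control library 1, 56 without control library 3, 78 without monolayer library 3, 184 without control library 2 and 236 without silenced library 2). For controls against monolayers, the 6 called of the 10 became 3 on log2(RPKM + 1), 3 on log2(RPKM + 0.1), 3 with the summed monolayers and 3 to 7 with 1 library left out. For silenced libraries against monolayers, the 4 called became 1 with the summed monolayers and 1 to 6 with 1 library left out, and the 4058 of all genes became 6459 without library 2 of both ALI groups and 2653 to 5743 with 1 library left out (2653 without monolayer library 2 and 2675 without silenced library 3). The cause of these shifts was not tested.

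Among the turns in sign were these. GCLC for silencing was -0.01 with DESeq2 size factors and -0.01 with the DESeq2 Wald test, and AKR1C3 was 0.02 without a filter. SLC7A11 for silencing was 0.06 on log2(RPKM + 1), 0.09 on log2(RPKM + 0.1) and 0.15 without library 2 of both ALI groups, where HMOX2 was -0.01. Without those libraries AKR1C1 was -0.06, KEAP1 0.11 and SLC7A11 -0.68 in controls against monolayers, and AKR1C1 was -0.08 and SLC7A11 -0.53 in silenced libraries against monolayers. TXNRD1 in silenced libraries against monolayers was 0.01 with summed monolayers. With 1 library left out, silencing values ran from -0.24 to 0.41 for GCLC, -0.97 to 0.65 for AKR1C1, -2.31 to 0.83 for AKR1C2, -1.42 to 1.15 for AKR1C3, -1.96 to 1.79 for SLC7A11, -0.11 to 0.22 for HMOX2, -0.04 to 0.29 for AKR1B1 and -0.56 to 0.05 for NFE2L2. In controls against monolayers they ran from -0.05 to 1.49 for AKR1C1, -0.38 to 0.11 for KEAP1 and -0.68 to 1.95 for SLC7A11, and in silenced libraries against monolayers from -0.42 to 0.06 for TXNRD1, -0.09 to 1.19 for AKR1C1 and -0.54 to 1.63 for SLC7A11.

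Deviations of same-numbered libraries correlated at 0.49, 0.58 and -0.01 between silenced and control groups, at -0.16, -0.22 and -0.01 between control and monolayer groups, and at -0.16, -0.19 and 0.13 between silenced and monolayer groups. Unlike-numbered silenced and control libraries correlated from -0.69 (silenced 1 with control 2) to 0.64 (silenced 1 with control 3). Deviations from a mean of 3 libraries are tied to one another. The numbers were not taken as pairs. With the replicate block, 0, 5 and 4 of the 10 genes were called for silencing, controls against monolayers and silenced libraries against monolayers, and 176, 5132 and 4000 of all genes. AKR1C levels spanned up to 2.92 on the log2 scale within a group of 3 libraries, and the 95% interval for silencing of AKR1C2 ran from -2.82 to 1.3.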
